A study of Mus musculus with 12 samples.

Results

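The genes described here were 8 transcription factors and basal transcription subunits of the oocyte, namely Figla, Nobox, Sohlh1, Sohlh2, Taf4b, Taf7l and Tbpl2, together with Tcf24. They were 8 of the 54532 genes in the count table. Of these, 7 were chosen by their known function in the oocyte, and Tcf24 was selected on its fall in somatic cells after treatment, so that its values in that contrast are given as a description with no test. Their RNA was measured by bulk RNA-seq in 12 libraries from ovaries of female mouse embryos of the strain Tg(Pou5f1-EGFP)2Mnn at E15.5 (embryonic day), in which green fluorescent protein under Pou5f1 (OCT4) regulatory sequence marks germ cells. Pregnant dams were given dexamethasone (dex, a synthetic glucocorticoid receptor agonist) (10 µg per gram) or saline by daily intraperitoneal injection from E12.5 to E15.5, and the ovaries, freed of mesonephroi and pooled over at least 2 litters per library, were sorted into GFP+ germ cells and GFP- somatic cells. This gave 4 groups of 3 libraries: dex germ cells, saline germ cells, dex somatic cells and saline somatic cells. All groups carried the same transgene, and the somatic fraction held every GFP- cell type of the ovary, blood and vessel cells included.

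Oocytes build their gene expression programme from a small set of regulators. Figla, Sohlh1 and Sohlh2 encode basic helix-loop-helix (bHLH) proteins, which bind DNA as dimers at E-box sequences. Figla drives the zona pellucida genes and is needed for primordial follicles to form. Sohlh1 and Sohlh2 act in germ cells before and during follicle formation and in early spermatogenesis, and Nobox, a homeodomain protein, acts in oocytes of primordial and growing follicles. Taf4b and Taf7l encode gonad-enriched variants of subunits of TFIID, the complex that places RNA polymerase II at promoters, and Tbpl2 encodes the variant of the TATA-binding protein that growing oocytes use. Tcf24 encodes a further bHLH protein that has been studied little.

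Promoter sequence in the RefSeq table (GRCm38.p6) was matched for 6 of the 8 genes, all except Tcf24 and Taf4b. The 250 bases before the RefSeq start of the 3 bHLH genes and of the homeobox gene are shown because these are the regulators whose levels in oocytes are described below, and because bHLH proteins recognise the E-box. Capitals mark matches to the E-box CANNTG, which was searched on both strands. The whole Figla window lies inside the Ensembl gene given below, which begins further upstream, so it does not precede the gene that was counted. The last bases of the Sohlh2 window also lie inside the Ensembl gene.

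Figla, chr6:86016941-86017190, plus strand: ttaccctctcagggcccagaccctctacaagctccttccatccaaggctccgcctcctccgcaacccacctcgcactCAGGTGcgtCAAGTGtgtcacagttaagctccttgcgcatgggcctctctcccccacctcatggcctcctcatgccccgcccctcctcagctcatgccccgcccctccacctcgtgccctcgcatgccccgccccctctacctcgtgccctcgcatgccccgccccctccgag
Nobox, chr6:43309555-43309804, minus strand: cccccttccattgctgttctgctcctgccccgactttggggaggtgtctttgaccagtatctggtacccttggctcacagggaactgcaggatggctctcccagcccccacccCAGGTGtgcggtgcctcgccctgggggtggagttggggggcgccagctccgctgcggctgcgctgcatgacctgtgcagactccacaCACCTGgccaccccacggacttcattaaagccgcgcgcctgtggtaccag
Sohlh1, chr2:25847249-25847498, minus strand: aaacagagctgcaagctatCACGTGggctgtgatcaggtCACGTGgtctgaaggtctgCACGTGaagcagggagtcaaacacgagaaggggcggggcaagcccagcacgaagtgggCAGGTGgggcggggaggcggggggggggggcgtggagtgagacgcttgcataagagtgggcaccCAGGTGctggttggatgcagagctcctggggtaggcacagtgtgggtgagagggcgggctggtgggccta
Sohlh2, chr3:55181794-55182043, plus strand: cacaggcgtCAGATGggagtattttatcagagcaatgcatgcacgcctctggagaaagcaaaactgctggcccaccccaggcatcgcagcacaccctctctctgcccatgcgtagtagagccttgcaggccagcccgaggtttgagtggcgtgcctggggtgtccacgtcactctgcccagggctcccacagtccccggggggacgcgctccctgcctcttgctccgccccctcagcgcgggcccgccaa

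Sohlh1 held 5 matches, of which 3 read CACGTG and 2 read CAGGTG. Figla and Nobox held 2 each and Sohlh2 held 1. Among the other members, Tbpl2 held 4 matches and Taf7l held 2. An E-box match was present in 66.2% of the 32841 promoter windows of this length, with a mean of 1.16 matches per window. The NOBOX element TAATTG, searched on both strands, had no match in the 6 windows and was present in 7.17% of all windows, and the glucocorticoid receptor half-site AGAACA was matched once, in Nobox, against 16.1% of all windows. The Tbpl2 window held 3 CG dinucleotides and the other 5 windows held 11 to 14, with a median of 6 over all windows. Fewer CG than in Tbpl2 were found in 29.0% of all windows, and fewer than in the other 5 in 64.4% to 70.6%. Since Tbpl2 is 1 gene, nothing is read from this difference. Such matches are letters in a window and not measured binding sites.

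The libraries held between 14658503 and 18245507 counts, and a floor of 3 counts corresponded to between 0.169 and 0.201 CPM (counts scaled to the library total and its TMM factor) per library. The labels were checked against marker genes in the saline libraries. Of 13 germ cell markers, 12 were higher in germ cells, with a median log2 difference of 8.54, and the exception was Dnd1 (log2 difference -0.71, edgeR adjusted p = 0.044). All 16 somatic markers were lower in germ cells, as were all 8 macrophage, 6 endothelial and 6 erythroid markers. The germ cell markers summed to between 6340 and 7580 CPM in the germ cell libraries and between 15.4 and 41.2 CPM in the somatic libraries. Being bulk samples, the libraries cannot tell fewer cells of a type from less RNA per cell. The labels call the replicates biological, and each p-value measures the spread between these pooled libraries.

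In germ cells at E15.5, 7 of the 8 genes were expressed and Tbpl2 was not detected above the floor. To compare levels between genes, the authors' FPKM values, which are scaled to gene length, were used. In saline germ cells the order was Taf7l at 353 ± 30.7 FPKM (SD, n = 3), Taf4b at 95.1 ± 1.87, Figla at 58 ± 5.38, Sohlh2 at 51.8 ± 2.6, Sohlh1 at 32 ± 8.61, Tcf24 at 18.7 ± 1.97 and Nobox at 10.6 ± 3.19 FPKM. Figla and Sohlh2 were the neighbours in this order whose FPKM ranges overlapped, and every other gene lay above the next in all 3 libraries. After dex the order was the same and no neighbouring ranges overlapped.

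Figla (ENSMUSG00000030001, chromosome 6, 86016171 to 86020996), the bHLH activator of zona pellucida genes, was at 46.5, 44.8 and 52.5 CPM in the saline germ cell libraries and at 42.5, 43.6 and 44.4 CPM after dex. The 3 dex libraries lay just below the 3 saline libraries. In somatic cells Figla had 1, 4 and 0 counts in saline and 0, 0 and 8 counts after dex, so that dex replicate 3 held all of its somatic dex counts. The log2 difference between saline germ and somatic cells was 8.75, and it became 10.27 without somatic saline replicate 2, the library with 4 of the 5 counts. It is given with no test, since Figla passed the low-count filter through its germ cell counts.

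Sohlh1 (ENSMUSG00000059625, chromosome 2, 25842995 to 25847248) was at 48.1, 28.3 and 45.8 CPM in saline germ cells and at 35.7, 33.9 and 31.8 CPM after dex. Saline replicate 2 was the lowest of the 6, and the dex values fell within the saline range. Its somatic level was 1.13, 0.709 and 1.09 CPM in saline, with 18, 11 and 18 counts, and 0.846, 0.563 and 1.9 CPM after dex. The log2 difference between saline germ and somatic cells was 5.38 (SE 0.25, edgeR adjusted p = 3.21e-11). Its partner Sohlh2 (ENSMUSG00000027794, chromosome 3, 55182028 to 55209957) was at 129, 118 and 117 CPM in the saline germ cell libraries and at 104, 100 and 107 CPM in the dex ones, again with no overlap between the groups. No somatic library held more than 3 counts of Sohlh2, and its saline germ cell level was at least 627-fold higher than the highest floor of a saline somatic library. As for Figla, no test is given.

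Nobox (ENSMUSG00000029736, chromosome 6, 43303674 to 43309554) was at 22.9, 14.2 and 26.2 CPM in saline germ cells and at 23, 22.5 and 18.9 CPM after dex. As for Sohlh1, saline replicate 2 was the lowest library. Lhx8, which encodes a LIM-homeodomain factor of the same oocyte programme, was also at its lowest there, with a range of 26.2 to 47.3 CPM over the saline libraries. Nobox had 0 counts in all 6 somatic libraries. Computed against the floor, its saline germ cell level was at least 109-fold higher, again given with no test.

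**Figure D1:**
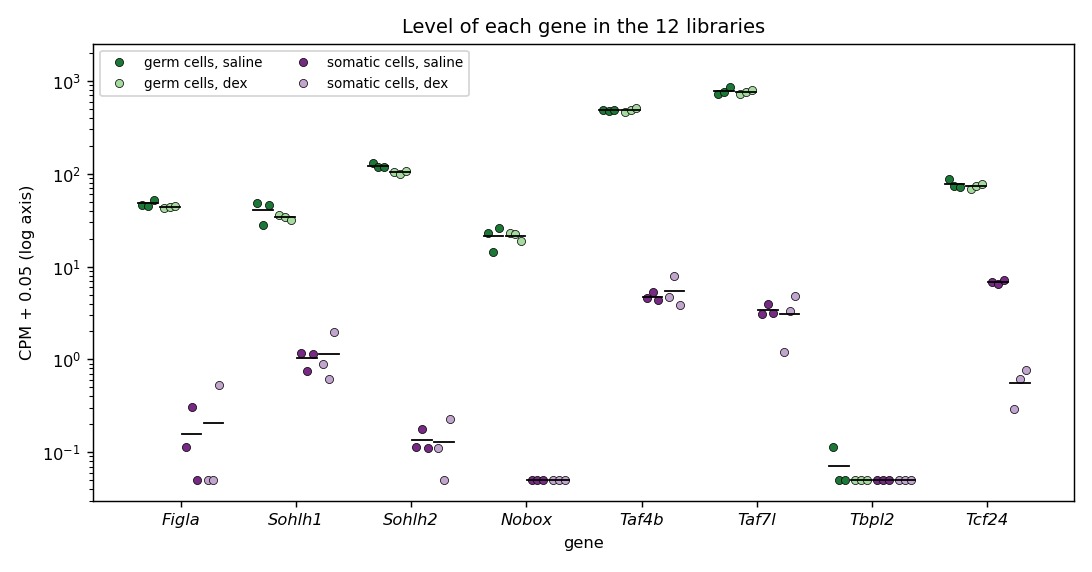
Level of each of the 8 genes in CPM plus an offset of 0.05, on a log axis, with 1 point per library and a bar at the mean of each group of 3 libraries. The germ cell points of 7 genes lie between 14.2 and 852 CPM, Tbpl2 is at or next to 0 in all groups, and Tcf24 is the gene whose saline and dex somatic points are far apart.

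The TFIID variants were the most abundant members. Taf7l (ENSMUSG00000009596, chromosome X, 134460118 to 134476490) was at 730, 768 and 852 CPM in saline germ cells and at 717, 760 and 793 CPM after dex, with overlapping groups. Its somatic level was 3.02, 3.87 and 3.09 CPM in saline and 1.15, 3.27 and 4.76 CPM after dex. Taf4b (ENSMUSG00000054321, chromosome 18, 14783245 to 14900359) was at 486, 479 and 490 CPM in saline germ cells, a narrow range, and at 459, 484 and 515 CPM after dex. Somatic libraries held 4.53, 5.29 and 4.31 CPM in saline and 4.71, 7.83 and 3.81 CPM after dex. In saline, germ cells exceeded somatic cells by a log2 difference of 7.89 for Taf7l (SE 0.12, edgeR adjusted p = 9.87e-16) and 6.7 for Taf4b (SE 0.1, edgeR adjusted p = 9.87e-16).

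Each variant was then set beside its widely expressed paralog, on the FPKM scale. In saline germ cells Taf4b was at 7.42 ± 0.872 times the level of Taf4 (SD, n = 3) and Taf7l at 11.7 ± 0.661 times the level of Taf7. In saline somatic cells these ratios were 0.104 ± 0.00606 and 0.116 ± 0.0138. The ranges of the germ cell ratio, 6.74 to 8.4 for Taf4b and 11 to 12.2 for Taf7l, lay far above the somatic ranges. The paralogs themselves differed far less between the cell types: Taf4 was at 12.9 ± 1.62 FPKM in germ and 8.5 ± 0.505 FPKM in somatic cells, and Taf7 at 30.1 ± 2.53 and 12.4 ± 0.333 FPKM. After dex the germ cell ratios were 8.22 ± 1.43 and 11.8 ± 0.404, overlapping their saline ranges.

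Tbpl2 (ENSMUSG00000061809, chromosome 2, 24071721 to 24096595) had 1 count in saline germ cell replicate 1 and 0 counts in the other libraries. It was therefore at or under the floor in every library, at most 0.201 CPM, and was not tested. The other genes of the TATA-binding protein family were expressed. Tbp, the general factor, was at 8.49 ± 0.452 FPKM in saline germ cells and 2.25 ± 0.133 FPKM in saline somatic cells (SD, n = 3). Tbpl1, the third family member, was at 14.3 ± 0.76 and 12.2 ± 0.838 FPKM.

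**Figure D2:**
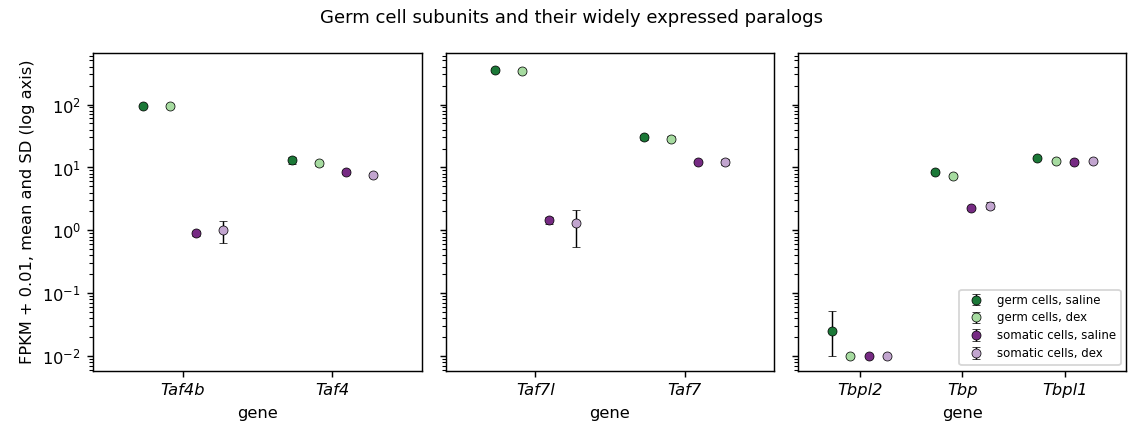
Mean FPKM plus an offset of 0.01, on a log axis, of Taf4b, Taf7l and Tbpl2 and their paralogs in the 4 groups, with bars showing the SD over 3 libraries. Taf4b and Taf7l lie above Taf4 and Taf7 in germ cells and below them in somatic cells, whereas Tbpl2 lies at or near 0 and Tbp and Tbpl1 are present in all groups.

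Tcf24 (ENSMUSG00000099032, chromosome 1, 9960163 to 9967932) shared the germ cell expression of the oocyte factors. It was at 87.5, 73.9 and 72.1 CPM in saline germ cells and at 69.3, 73.5 and 77.2 CPM after dex, and the groups overlapped. In saline somatic cells Tcf24 was at 6.73, 6.51 and 7.1 CPM, from 107, 101 and 117 counts. The log2 difference between saline germ and somatic cells was 3.53, given with no test because the saline somatic values were among those its selection used. The 7 members tested were called higher in germ cells, as were 43.1% of all tested genes. Figla, Nobox and Sohlh2 passed the low-count filter through their germ cell counts and Tbpl2 did not pass it, and the saline somatic values of Tcf24 were used to choose it, so nothing is read from that count.

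Dex and saline were then compared within germ cells. None of the 7 members tested was called by edgeR (threshold 0.05 on the Benjamini-Hochberg adjusted p), where 0.208% of 16857 genes were called, and DESeq2 called none of the 7 either. At an unadjusted edgeR p under 0.05 there were 1963 of the 16857 genes, and among the 7 members there was 1, Sohlh2. Its log2 fold change was -0.22 (95% interval -0.36 to -0.08, edgeR adjusted p = 0.242), and all 3 dex libraries lay below all 3 saline libraries. Figla showed the same separation with a log2 fold change of -0.13 (95% interval -0.31 to 0.05, edgeR adjusted p = 0.575). These were 2 of the 7 members tested, and 9.43% of all tested genes had non-overlapping groups with lower values after dex. Sohlh1 had a log2 fold change of -0.26, with a 95% interval of -0.61 to 0.09 (edgeR adjusted p = 0.568).

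The intervals of the remaining members were centred near 0 and differed in width. Taf4b had a log2 fold change of 0.01 with a 95% interval of -0.12 to 0.15, and Taf7l one of -0.04 with an interval of -0.2 to 0.11. For Tcf24 the values were -0.08 and -0.26 to 0.11 (edgeR adjusted p = 0.761). Nobox, the lowest of the expressed members, had a log2 fold change of 0.03 and the widest interval, from -0.38 to 0.45. None of the 7 intervals reached a change of 1 on the log2 scale in either direction. The median of the 7 log2 fold changes was -0.08, compared with 0.014 over all genes tested.

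**Figure D3:**
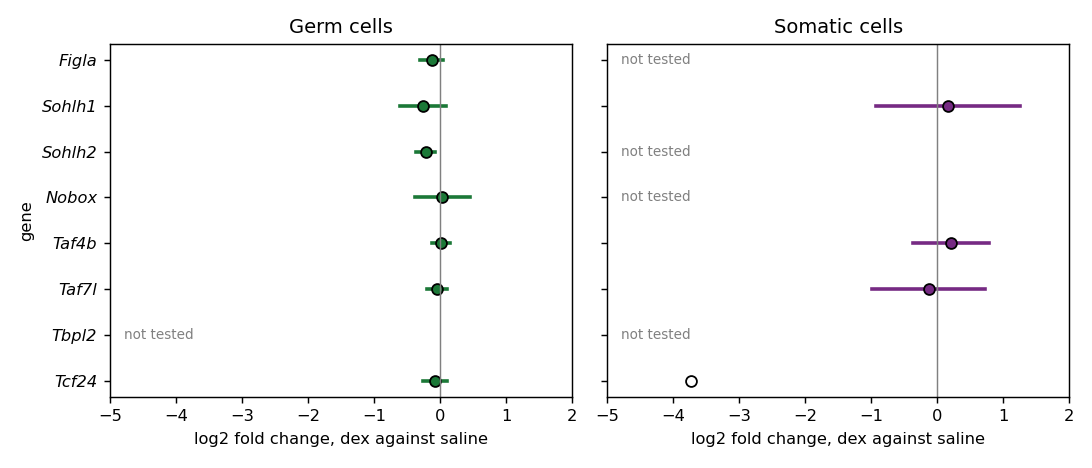
Log2 fold change of dex against saline in germ cells and in somatic cells, with lines giving 95% intervals from the edgeR fit over 3 libraries per group. The open point is Tcf24 in somatic cells, at -3.72, shown with no interval because Tcf24 was selected on that contrast, and the germ cell points lie between -0.26 and 0.03.

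In somatic cells 4 members had enough counts to be tested. Sohlh1 (log2 fold change 0.16, 95% interval -0.93 to 1.26), Taf4b (0.21, -0.37 to 0.79) and Taf7l (-0.12, -0.98 to 0.73) were not called, with edgeR adjusted p-values of 0.899, 0.716 and 0.903. These genes had between 10 and 139 counts per somatic library. Tcf24 was the member that was called, in a contrast that called 8.18% of 16556 genes, and since it was chosen for that fall nothing is read from the call. After dex Tcf24 was at 0.242, 0.563 and 0.714 CPM, from 4, 10 and 12 counts. Every dex library lay far below every saline library, and the mean level was 0.506 ± 0.241 CPM after dex and 6.78 ± 0.296 CPM in saline (SD, n = 3), so that the log2 fold change was -3.72. Each dex library was still above its floor of 3 counts. On the FPKM scale Tcf24 was the highest of the 8 genes in saline somatic cells, at 1.57 ± 0.0709 FPKM with a range overlapping that of Taf7l, and it was the fifth after dex, at 0.117 ± 0.055 FPKM.

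The difference between the dex effects in germ and somatic cells was computed for the 4 members tested in both. It was -0.43 for Sohlh1 (edgeR adjusted p = 0.722), -0.22 for Taf4b (0.701) and 0.06 for Taf7l (0.974), none called. For Tcf24 the difference was 3.63, given as a description since it holds the somatic contrast. In this test 1.62% of 19390 genes were called.

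To set the somatic values beside the germ cell RNA present in the somatic fraction, each somatic level was expressed as a percent of the mean germ cell level. The median over the 13 germ cell markers was 0.216% ± 0.0873 in saline and 0.292% ± 0.153 in dex somatic libraries (SD, n = 3), and this median differed by 0.0757 between the groups (exact permutation test, two-sided p = 0.6, where 0.1 is the smallest it can give). The summed level of the same markers was 0.271% ± 0.0765 in saline and 0.489% ± 0.137 in dex, a difference of 0.219 (exact permutation test, two-sided p = 0.2). In CPM the mean sum was 18.6 in saline and 33.6 in dex somatic libraries. Dazl alone was at 1.17 and 12.8 CPM, so that it made up most of the rise in the sum. Nobox was at 0%, Sohlh2 at 0.075% ± 0.0347, Figla at 0.234% ± 0.294 and Taf7l at 0.432% ± 0.0608 in saline. Taf4b was at 0.97% ± 0.106 and Sohlh1 at 2.62% ± 0.629. Leaving Dnd1 aside, the single markers ran from 0.0829% for Hormad1 to 1.84% for Tdrd1 in saline, so that Sohlh1 lay above that range and Nobox and Sohlh2 below it. Tcf24 was at 8.97% ± 0.394 in saline, above all of these, and at 0.67% ± 0.319 after dex, where the same markers ran up to 1.57%. Among the markers Dazl moved the other way, from 0.114% of its germ cell level in saline to 1.24% after dex. Ddx4, Mael, Sycp3, Sycp1, Hormad1, Stra8 and Tex101 were also higher after dex, by less. Dnd1, Sycp2, Tdrd1, Dppa3 and Pou5f1 were lower. Of the 10 markers tested in somatic cells, Dazl was the 1 called, in a contrast that called 8.18% of all tested genes.

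**Figure D4:**
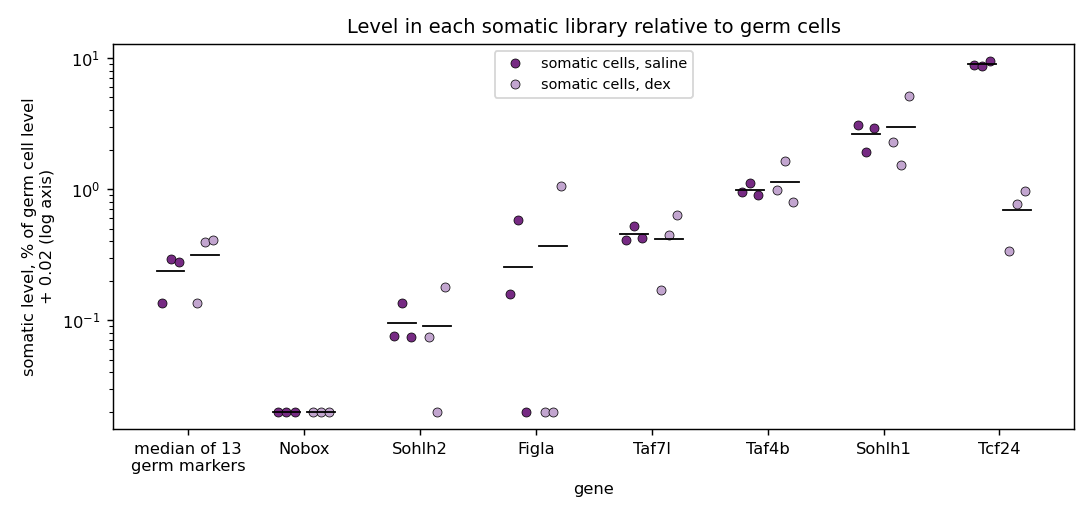
Level in each somatic library as a percent of the mean germ cell level, plus an offset of 0.02, on a log axis, for the median of 13 germ cell markers and 7 genes, with bars at the means of 3 libraries. Tcf24 moves from between 8.61% and 9.39% in saline to between 0.32% and 0.944% after dex, while the saline and dex points of the other genes overlap.

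Markers of other cell types also moved between the somatic groups. The 8 macrophage markers summed to between 199 and 266 CPM in saline and between 55.8 and 137 CPM after dex. In a contrast that called 8.18% of all tested genes, 5 of the 8 fell, with a list median of -0.97. Among them was Adgre1 (log2 fold change -1.78, edgeR adjusted p = 0.00346). The endothelial sum was between 318 and 371 CPM in saline and 287 and 323 CPM after dex, and the ranges of the endothelial, somatic and erythroid sums overlapped between the groups. Of the 6 endothelial markers, Tie1 and Cdh5 fell by 0.65 and 0.5 and Emcn rose by 0.43, and of the 16 somatic markers Pdgfra rose by 0.62 and Wnt4 fell by 0.24, while no erythroid marker was called. The calls of Emcn and Wnt4 were lost under 6 of 11 alternatives each, with edgeR adjusted p up to 0.456 and 0.613. Both were lost with all 12 libraries in the fit and without somatic dex replicate 1 or 2 or somatic saline replicate 1 or 2, Emcn also with RLE scaling and Wnt4 also without somatic saline replicate 3. The call of Tie1 was lost without somatic saline replicate 2 or 3 (edgeR adjusted p = 0.0529 and 0.0837), and that of Cdh5 without somatic saline replicate 3 (0.0597) and with all 12 libraries in the fit (0.0857). No defining macrophage marker was at 0 in either group. The part of these shifts in the somatic level of Tcf24 was not tested.

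The counts of Tcf24 were examined for reads that could belong to other genes. Of its 4144 distinct transcript 50-mers, 13.8% also occurred in E330040D14Rik, a provisional transcript annotated on the opposite strand across the start of Tcf24, and none occurred in any other gene. E330040D14Rik had 0 counts in all 6 somatic libraries and a mean of at most 1 CPM in germ cells. Whether counting used strand was not given, so reads from this overlap could not be assigned by strand. The other 7 members shared no 50-mer with another gene, and none overlapped another annotated gene.

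Genes around Tcf24 were compared to see whether its somatic fall was shared by its neighbourhood. Of 11 genes annotated within 100 kb, 7 reached 1 CPM in a group and 5 were tested in somatic cells. None of the 5 was called, in a contrast that called 8.18% of all tested genes, so nothing is read from that count. The nearest of them was Snhg6, at 16 kb. Ppp1r42, at 0.692 kb, had a group mean of at most 0.503 CPM and was not compared, and the overlapping E330040D14Rik had 0 somatic counts. The closest surroundings of Tcf24 were therefore not covered. Mcmdc2, a gene of meiotic recombination 18.1 kb from Tcf24, was at 1.7 and 1.43 CPM in saline and dex somatic cells (log2 fold change -0.25, 95% interval -1.08 to 0.57), and the snoRNA host transcript Snhg6 was at 26.6 and 29.1 CPM (0.13, -0.17 to 0.42). The signalosome subunit gene Cops5 (0.01), Cspp1, which encodes a protein of centrosomes and cilia (-0.09), and the kinase gene Sgk3 (-0.24, edgeR adjusted p = 0.414, the lowest of the 5) completed the set. In germ cells all 7 were tested and none was called, where 0.208% of all tested genes were called.

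**Figure D5:**
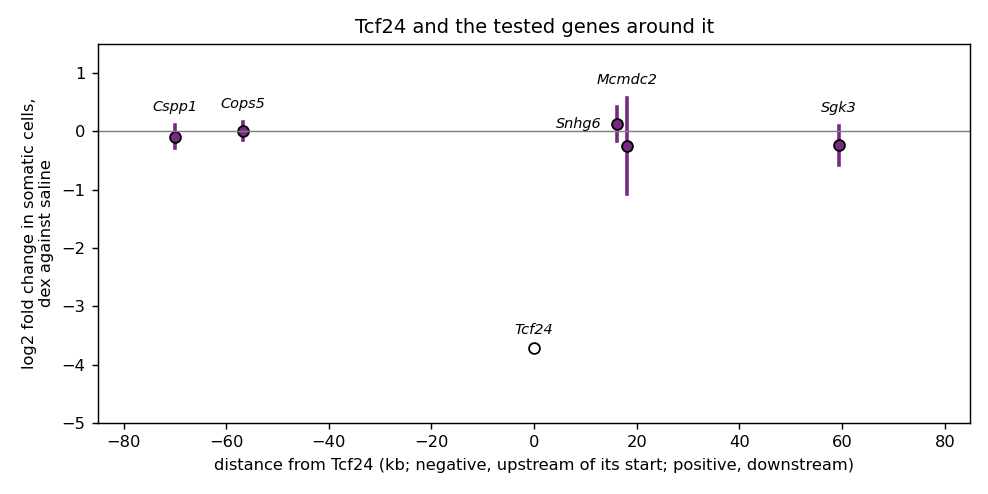
Log2 fold change of dex against saline in somatic cells for Tcf24 (open point) and the 5 tested genes within 100 kb, against their distance from Tcf24 in kb, with lines giving 95% intervals. Tcf24 is at -3.72, and the neighbours lie between -0.25 and 0.13 with intervals that all cross 0.

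The genes most like each member over the 12 libraries were found by the distance between gene-centred log2 CPM values among 19380 genes, as a description. The 5 nearest to Tcf24 were Cyp2c52-ps (distance 2.53), Cyct (2.6), Duox2 (2.63), Itgax (2.67) and Samd13 (2.79). All 5 were low, at 2.1 to 6.48 CPM in saline germ cells, and at 0.146 to 0.55 CPM in saline somatic cells, so that their somatic values rested on few counts. Cyct, the testis cytochrome c gene, had between 2 and 5 counts in saline and at most 2 in dex somatic libraries. The 2 nearest to the oocyte regulators were Ankrd34b and Gm13034 for Figla, En2 and AV320801 for Nobox, Esrp1 and Pls1 for Sohlh1, and Ccdc172 and Mlc1 for Sohlh2. Taf4b was nearest to Otud6a and Tex28, and Taf7l to Fkbp6 and Sycp2, both of which act in the meiotic synaptonemal complex. All these distances share the contrast between germ and somatic libraries.

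Other genes of the same pathways were read from lists. Among 20 genes that these factors are known to act on in oocytes, 19 were in the table and 10 were tested in germ cells after dex. In a contrast that called 0.208% of all tested genes, 1 of these fell and none rose. It was Kit, the receptor tyrosine kinase gene of germ cells, which in germ cells ran from 158 to 184 CPM with saline and from 106 to 123 CPM with dex, a log2 fold change of -0.58 (SE 0.08, edgeR adjusted p = 0.00959). In somatic cells Kit was at 31.3 ± 3.7 and 39.8 ± 1.69 CPM (SD, n = 3), which was not called (0.34, edgeR adjusted p = 0.0511). The 19 targets covered a wide range in saline germ cells, where 3 (Oosp1, H1foo and Zar1) were at or under the floor in all libraries while Uchl1 ran from 50.3 to 77.2 CPM and Tle6 from 27.2 to 43 CPM. Zp3, which encodes a zona pellucida protein and is a target of Figla, had at most 6 counts in any saline germ cell library and 0 in the dex germ cell libraries, and Zp2 was at 0.376 ± 0.411 and 0.839 ± 0.45 CPM. Gdf9 and Bmp15, the oocyte growth factor genes, were at 1.07 ± 0.222 and 1.97 ± 0.367 CPM in saline germ cells.

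Among 15 other oocyte transcription factors, 14 were tested in germ cells after dex and none was called. That contrast called 0.208% of all tested genes, and the median log2 fold change of the 14 was -0.02. Lhx8 averaged 38.1 ± 10.8 CPM with saline and 29.9 ± 0.972 CPM with dex in germ cells (SD, n = 3, log2 fold change -0.34, edgeR adjusted p = 0.471) and at or under the floor in somatic cells. In somatic cells 10 of the list were tested, 2 rose and 1 fell, in a contrast that called 8.18% of all tested genes. The LIM-homeobox gene Lhx4 rose to 6.2 ± 1.32 CPM from 0.337 ± 0.196 CPM (SD, n = 3, log2 fold change 4.18, edgeR adjusted p = 1.99e-05), Msx2 rose by 0.96 (edgeR adjusted p = 0.0176) and Pou6f1 fell by 0.53 (edgeR adjusted p = 0.00686). The call of Pou6f1 was lost with all 12 libraries in the fit (-0.52, edgeR adjusted p = 0.0603, the highest over its alternatives, which went down to 3.27e-05). The call of Msx2 was lost without somatic dex replicate 1 or 2 or somatic saline replicate 2 or 3 (edgeR adjusted p = 0.0517, 0.0549, 0.0894 and 0.0906), within a range of 0.00181 to 0.0906 over its alternatives.

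The TFIID and TFIIA subunits and the TBP family, Taf4b and Taf7l included, gave no dex call in germ cells (0 of 21 tested) or in somatic cells (0 of 20). Over all tested genes 0.208% were called in germ cells and 8.18% in somatic cells, so nothing is read from these counts. Apart from Taf4b and Taf7l, 15 of the 19 tested were higher in saline germ cells than in saline somatic cells and none was lower, with a median log2 difference of 1.23. Over all 17941 genes tested, 43.1% were called higher in germ cells and 7701 genes were called lower. Taf9b, a paralog of Taf9, was at 197 ± 20.9 CPM in germ and 11 ± 0.332 CPM in somatic cells (SD, n = 3, log2 difference 4.17, edgeR adjusted p = 1.92e-14). The TFIIA subunit gene Gtf2a1l was low, at 1.46 ± 0.673 CPM in germ cells, and at or under the floor in saline somatic cells.

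The dimer partners of bHLH proteins are the E proteins, and the Id proteins block them. None of the 7 was called in germ cells after dex, where 0.208% of all tested genes were called. In somatic cells, where 8.18% of all tested genes were called, 3 fell and none rose. Id4 fell to 27.7 ± 1.25 CPM from 42.3 ± 1.28 CPM (SD, n = 3, log2 fold change -0.61, edgeR adjusted p = 0.000508), and Id1 and Id3 fell by 0.3 and 0.24 (edgeR adjusted p = 0.0199 and 0.0291). The calls of Id1 and Id3 were lost without somatic dex replicate 1 or 2 or somatic saline replicate 2 or 3, with edgeR adjusted p-values between 0.0617 and 0.107, and with all 12 libraries in the fit (0.0937 and 0.212). Of 24 tissue bHLH genes related to Tcf24 in the table, 11 were tested in somatic cells. Tcf23 rose to 23.8 ± 4.27 CPM from 9.12 ± 0.828 CPM (SD, n = 3, log2 fold change 1.38, edgeR adjusted p = 7.54e-05), and the other 10 were not called. In saline 7701 of all 17941 tested genes were called lower in germ cells than in somatic cells. Of these bHLH genes 9 of 10 tested were lower, with Hand2 (-7.88), Tcf21 (-7.4) and Twist2 (-6.47) at the extreme. Hand2, Twist2 and Tcf23 had at most 4, 9 and 4 counts in any saline germ cell library. They passed the low-count filter through their somatic counts, so nothing is read from the count of 9. Tcf15 was higher (1.63, edgeR adjusted p = 0.000298). The corresponding log2 difference of Tcf24 was 3.53.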

How the data were processed

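Bulk RNA-seq of 12 libraries was used. Per the labels and the study's methods, mRNA was purified on poly-dT beads, primed with random hexamers and sequenced from both ends, and HISAT2 2.0.5, featureCounts 1.5.0-p3 and DESeq2 1.20.0 with the build mm10 are named in the submitters' processing notes. The authors deposited raw counts per Ensembl gene and FPKM values (counts scaled to exon length and depth) made from them. The strand setting was not given in the sources used here. The authors' own comparison tables, which hold their fold changes and p-values, were not used.

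Counts were tested with edgeR 4.0.16 (quasi-likelihood, TMM, filterByExpr, Benjamini-Hochberg, BH, adjustment over all tested genes, threshold 0.05) in R 4.3.3. Dex was compared with saline within each cell type, germ with somatic cells in saline, and the dex effects between cell types over all 12 libraries. CPM was scaled with the library total and TMM factor together. Standard errors follow from the F statistic. Depth was 14658503 to 18245507 counts per library, and floors of 3 counts cover counting error only, since reads carried no molecular identifiers. FPKM was used for levels between genes. Data were simulated for germ cell dex against saline with changes set in a small part of the genes, and 16473 genes were tested. Of the set changes, 64.3% of 2-fold and 93.8% of 4-fold ones were recovered. There were 18 false calls, to be set against the recovered changes and not against all genes tested. More changes were set than the 35 genes called in the data, so these rates need not hold there. Alternatives were RLE scaling, no low-count filter, DESeq2 1.42.0, all 12 libraries in each fit, a replicate block, for the difference also a block of treatment and number, and leaving out each library.

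The members, gene lists, tests and the rule for named genes were chosen with earlier results of these data known. Named were all members, their paralogs and Lhx8, up to 3 called genes per direction and list at 1 CPM or more, the genes within 100 kb of Tcf24, and the 5 genes most like Tcf24 and 2 most like each other member. Zp2, Zp3, Gdf9, Bmp15, Uchl1, Tle6, Oosp1, H1foo, Zar1, Gtf2a1l, Cyct counts and single germ cell markers were chosen after their values were seen. Promoters are RefSeq windows, and 50-mers were taken from GENCODE transcripts of GRCm38.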

Additional observations from a re-analysis of the deposited data

Results flagged for a closer look

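By the interaction test of edgeR over all 12 libraries, the dex effect differed between germ and somatic cells for 5 genes of the lists. This test called 1.62% of 19390 genes. The 5 were 2 of 13 germ cell markers, 1 of 10 oocyte factor targets, 1 of 14 other oocyte transcription factors and 1 of 7 E and Id proteins. Tcf24 differed by 3.63 on the log2 scale, with lower values in somatic cells after dex, and was selected on the somatic contrast, so this is a description. Kit differed by -0.94 (SE 0.13, edgeR adjusted p = 0.000955), falling in germ cells by 0.58. Lhx4 differed by -4.37 (edgeR adjusted p = 6.89e-05), with the change in somatic cells. Dazl, a germ cell marker, differed by -3.56 (edgeR adjusted p = 1.91e-10) and rose in somatic cells to 12.8 ± 0.134 CPM, with 1.17 ± 0.193 CPM in saline (SD, n = 3). Hormad1, another germ cell marker, differed by -1.66 (edgeR adjusted p = 0.028), and that call was lost under 8 of 17 alternatives, with edgeR adjusted p up to 0.0949. Without the germ dex replicate 2 or germ saline replicate 3, or any of somatic dex replicates 2 and 3 and somatic saline replicates 1 to 3, Hormad1 was not called, nor was it with the replicate block within treatment (-1.66, edgeR adjusted p = 0.0536). Id4 differed by 0.57 (edgeR adjusted p = 0.0495), a call lost under 15 of 17 alternatives, with edgeR adjusted p up to 0.125.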

How the results depend on the processing

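No member was called in germ cells after dex under any alternative run, and no member other than Tcf24, whose somatic contrast chose it, was called in somatic cells or in the difference. Over all tested genes, germ cell calls went from 35 to 420 without the low-count filter, 158 with DESeq2 and 64 with all 12 libraries in the fit, and ranged from 17 (without germ dex replicate 2 or saline replicate 3) to 81 (without germ dex replicate 1). Somatic calls went from 1354 to 803 with all 12 libraries and ranged from 754 (without saline replicate 3) to 1881 without single libraries, with 756, 888 and 856 without saline replicates 2 and 1 and dex replicate 2. Calls on the difference went from 314 to 727 without the filter and 620 with DESeq2, and ranged from 143 to 384 without single libraries, falling to between 143 and 201 without germ dex replicate 2 or 3, germ saline replicate 3, somatic dex replicate 1 or 2, or somatic saline replicate 2 or 3. The cause was not tested. Of the 5 genes most like Tcf24, 1 was shared when Pearson correlation replaced distance.

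Signs of changes near 0 turned without single libraries. In germ cells the ranges were -0.19 to 0.22 for Nobox, -0.04 to 0.04 for Taf4b, -0.09 to 0.02 for Taf7l and -0.13 to 0.01 for Tcf24. In somatic cells they were -0.58 to 0.27 for Taf7l, -0.16 to 0.42 for Taf4b and -0.48 to 0.47 for Sohlh1, and in the difference -0.3 to 0.53, -0.4 to 0.16 and -0.74 to 0.23 for these. No such value was called. Sohlh2 stayed between -0.25 and -0.18 in germ cells (edgeR or DESeq2 BH-adjusted p 0.146 to 0.576).

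Same-numbered dex and saline libraries correlated by 0.01 to 0.15 in their deviations from the group means, and not every one correlated best with its own number. Same-numbered germ and somatic libraries correlated by 0.05 to 0.07, and each germ cell library correlated best with its own number. The main fits did not take the numbers as pairs, also between germ and somatic cells, and the replicate blocks were run as alternatives. With the replicate block there were 49 germ cell, 1520 somatic and 313 difference calls, and the germ cell log2 fold change of Tcf24 was -0.07. The somatic counts of Figla, Sohlh2, Nobox and Tbpl2 were too low for a dex comparison at this depth.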
